A study of Mus musculus with 6 samples.

Results

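The genes described are 39 integrin chains, laminin chains, nidogens and adhesive glycoproteins of the mouse, chosen by name, with earlier results of these data known. They comprise 20 integrin receptor chains and 19 matrix ligands, out of 53700 genes listed in the deposited expression table. Each symbol matched a single Ensembl identifier. Expression was measured by RNA-seq of poly-A-selected mRNA from SL4, a luciferase-expressing mouse CRC cell line. The groups were 3 libraries of SL4 cells without SEMA6A overexpression (pLV-Control) and 3 libraries of SL4 cells made to overexpress SEMA6A stably by lentivirus (pLV-SEMA6A), with no further treatment named for either group and the content of the control virus, if any, not given. The sources describe a stable pLV-SEMA6A line and name no independently made lines, so an effect of SEMA6A and a difference between cell lines cannot be told apart. Nothing states that libraries of a group came from separate cultures, so p-values measure the spread between libraries, which may be technical.

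Integrins are heterodimers of an alpha and a beta chain that span the plasma membrane and tie the extracellular matrix to the actin cytoskeleton. The alpha chain largely sets which ligand is bound, and the beta1 chain can pair with most alpha chains. Laminins are trimers of an alpha, a beta and a gamma chain and, with the nidogens that link them to collagen IV, form the basement membrane on which epithelia rest. Fibronectin, vitronectin and osteopontin carry an arginine-glycine-aspartate (RGD) sequence that alpha5beta1 and the alphav integrins recognise.

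The RGD codons themselves are shown for the ligands above 1 TPM that hold them, because several of the integrins measured are known to read this sequence. TPM corrects each level for transcript length and sets all libraries to a common total, so levels of different genes can be compared. In the longest coding sequence of each of the 19 ligand genes (GENCODE M21, GRCm38), in-frame RGD codons were found at 1 position in Spp1, Thbs1, Thbs2, Nid1, Nid2 and Vtn, and at 2 positions in Fn1 and in Lama5. The scarcely expressed Lama1, Lama3 and Lama4 held 1 each. None occurred in Lama2, Lamb1, Lamb2, Lamb3, Lamc1, Tnc, Postn or Sparc. The stretches below are coding sequence, 5′ to 3′, with the 3 RGD codons in capitals and 15 bases on each side. Vtn, the gene of vitronectin, is added as the ligand with this sequence that SL4 cells hardly expressed. A match is a description of the letters and does not show binding.
Spp1 at codon 145: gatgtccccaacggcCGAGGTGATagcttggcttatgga
Fn1 at codon 1614: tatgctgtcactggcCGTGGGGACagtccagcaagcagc
Fn1 at codon 2181: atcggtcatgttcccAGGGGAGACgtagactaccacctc
Thbs1 at codon 927: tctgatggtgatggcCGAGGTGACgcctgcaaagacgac
Thbs2 at codon 928: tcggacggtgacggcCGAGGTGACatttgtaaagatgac
Nid1 at codon 700: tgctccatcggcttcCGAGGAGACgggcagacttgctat
Nid2 at codon 946: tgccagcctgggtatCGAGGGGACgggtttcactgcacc
Lama5 at codon 1723: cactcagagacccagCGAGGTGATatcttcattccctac
Lama5 at codon 1839: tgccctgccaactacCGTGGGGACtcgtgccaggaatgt
Vtn at codon 64: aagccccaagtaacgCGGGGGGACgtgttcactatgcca

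The codons shown for Spp1 lie in exon 7 at chr5:104439466-104439504 on the plus strand, and those of Fn1 in exon 30 at chr1:71606731-71606769 and exon 40 at chr1:71597428-71597466 on the minus strand. In both thrombospondins the stretch spans the junction of exons 17 and 18, and its codon number differs by 1 between them. All coordinates are on GRCm38, whereas the submitters' processing notes name mm39 for the expression table, and genes were matched between them by Ensembl identifier.

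The pLV-Control libraries held between 19340 and 19463 genes above 0, and the pLV-SEMA6A libraries between 18798 and 18887. Sema6a itself was listed at 0 in all 3 pLV-Control libraries and reached 98.7, 118 and 112 TPM with SEMA6A, the direction that the labels give. The defining markers of colon epithelium were nearly absent, since all 10 markers examined, among them Epcam, Cdh1, Krt8 and Vil1, were below 1 TPM in every library and their summed level was at most 0.82 TPM. Markers of leukocytes and of endothelium summed to at most 3.31 and 0.22 TPM. Of 10 fibroblast and mesenchymal markers, 7 were tested. By the call criterion given in the next paragraph, 4 were called higher and 2 lower in pLV-SEMA6A, against 5.12% and 10.8% of all genes tested. Those called higher were Col1a1, Col3a1, Acta2 and Vim, and those called lower were Pdgfra and Pdgfrb. Pdgfra, with means of 1.76 TPM without and 0.78 TPM with SEMA6A, passed the filter on low values, also given there, only through pLV-Control. None of the 10 was at 0 throughout, but several were low. Lum stayed at or below 0.11 TPM, Col1a2 at or below 1.13 TPM and Thy1 at or below 1.49 TPM, and these were not tested. Pdgfra and Dcn stayed at or below 2.14 and 2.58 TPM. The summed level of the 10 was 1046 to 1080.02 TPM without and 1660.4 to 1706 TPM with SEMA6A, most of it Vim. Whether this difference has a part in the results below was not tested. In bulk RNA, fewer cells of a kind and less RNA per cell cannot be told apart.

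Most of the changes among these genes were decreases of moderate size. Among the integrin chains, Itga6 rose and Itga7, Itga10 and Itgb7 fell in pLV-SEMA6A. Among the matrix ligands, Thbs1, Thbs2 and Nid2 fell and none was called higher. Lamb3 was also called lower, but it passed the filter on low values only through pLV-Control. The 2 most abundant ligands differed in opposite directions by less than the minimum change, Spp1 being at 1.30 times and Fn1 at 0.839 times its pLV-Control level. Groups were compared on log2(TPM + 1) by limma, using its trend option, and p-values were adjusted by Benjamini-Hochberg over 12510 genes whose mean reached 1 TPM. A call needed both an adjusted p below 0.05 and a log2 fold change beyond 0.5 in either direction. Fold changes on this scale understate the change of low genes.

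Of the 39 genes, 24 passed the filter on low values and 15 did not. Among the 12 integrin chains tested, 1 was called higher and 3 lower, and among the 12 ligands tested, 0 were called higher and 4 lower, or 3 lower with a filter at 5 TPM. Of all 12510 genes tested, 5.12% were called higher and 10.8% lower. At an adjusted p under 0.05 without a minimum fold, 3 integrin chains were higher and 5 lower, and 3 ligands were higher and 8 lower, where 19.5% of all genes tested were higher and 28.2% lower. The libraries of the groups did not overlap for 22 of the 24 genes, against 58.5% of all genes tested. The median log2 fold change was −0.31 over the integrin chains tested, −0.27 over the ligands and −0.06 over all genes. Both the count without overlap and the medians of the members include Itgb4, Itgb8 and Lamb3, lower genes that passed the filter only through pLV-Control. When every library was centred on its median, the share of higher calls among all calls moved from 32.2% to 51.0%, so small differences near 0 depend on the scaling.

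**Figure D1:**
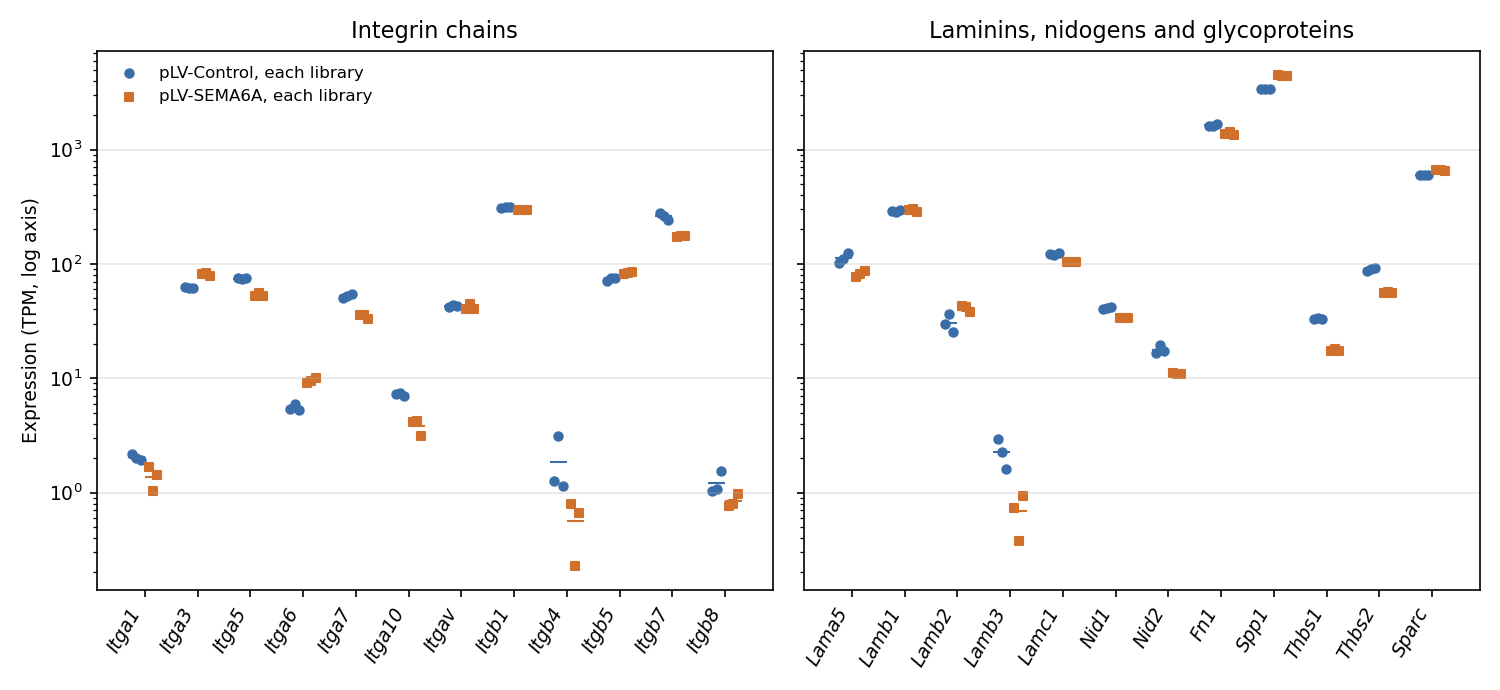
Expression in TPM (log axis) of the 24 members with a mean of at least 1 TPM, integrin chains on the left and matrix ligands on the right. Each point is 1 library and each line a group mean. Spp1, Fn1 and Sparc stand above the other ligands and Itgb1 and Itgb7 above the other integrin chains.

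**Figure D2:**
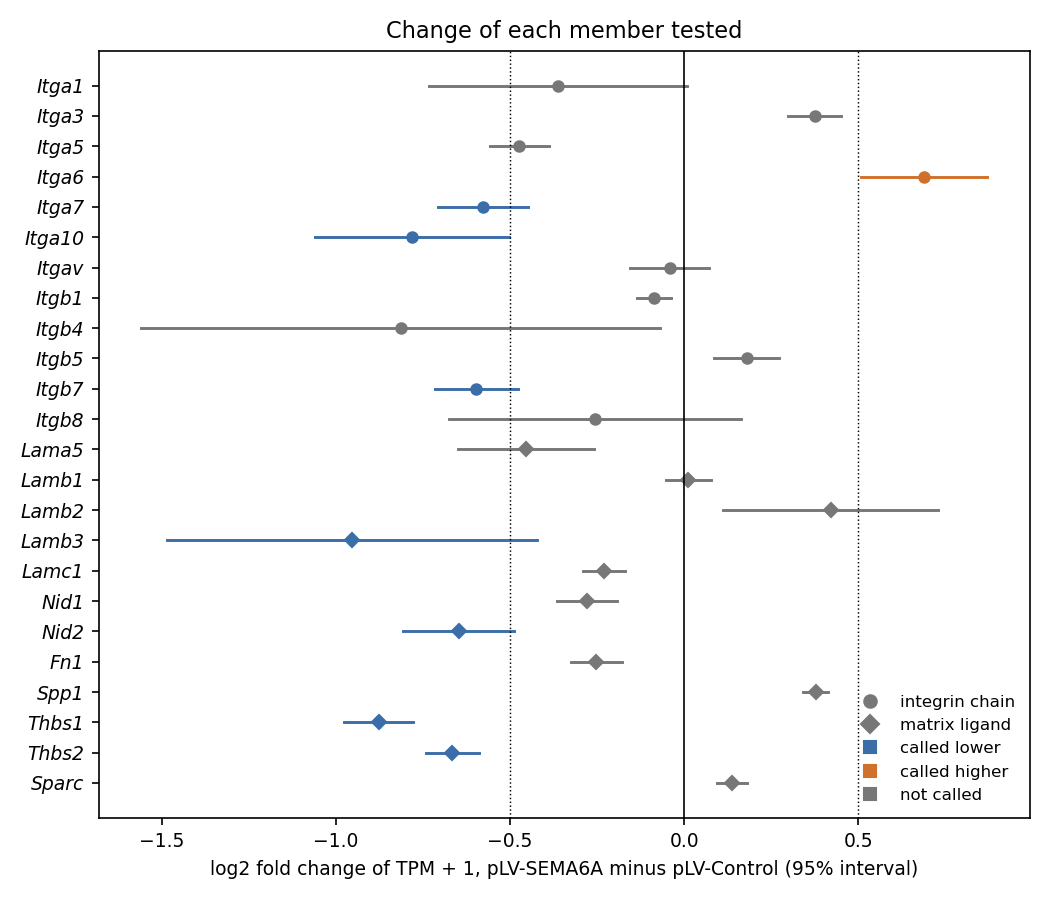
log2 fold change of TPM + 1 (pLV-SEMA6A minus pLV-Control) with its 95% interval from limma for the 24 members tested, circles for integrin chains and diamonds for matrix ligands. Dotted lines mark the minimum of 0.5. Itga6 is called higher, and 7 members are called lower.

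The laminin-binding alpha chains did not move together. Itga6, which pairs with beta1 or beta4 as a laminin receptor, measured 5.39, 5.92 and 5.32 TPM in the pLV-Control libraries against 9.01, 9.54 and 10.1 TPM with SEMA6A. All pLV-SEMA6A libraries lay above all pLV-Control libraries, and the log2 fold change was 0.69 ± 0.08 (SE, limma adjusted p = 0.000569). Itga3, the alpha chain of the other main epithelial laminin receptor, measured 62.2, 61.8 and 62.0 TPM in the pLV-Control libraries against 81.0, 82.6 and 78.5 TPM with SEMA6A. Its pLV-SEMA6A libraries were likewise all the higher ones, but the log2 fold change of 0.37 ± 0.03 (SE, limma adjusted p = 0.000183) was under the minimum. Itga7, the laminin-binding chain best known from muscle, measured 49.8, 52.1 and 55.0 TPM in the pLV-Control libraries against 36.0, 35.4 and 32.8 TPM with SEMA6A. It fell without overlap of the groups, with a log2 fold change of −0.58 ± 0.05 (SE, limma adjusted p = 0.000296). With every library centred on its median the value was −0.48, which no longer reached the minimum. The 3 chains together summed to 120 ± 2.45 TPM without and 125 ± 3.25 TPM with SEMA6A (SD, n = 3 each), and these sums overlapped between the groups. Their share of the summed TPM of the 12 alpha chains was 48.4% ± 0.36 in pLV-Control and 55.2% ± 0.52 in pLV-SEMA6A (SD, n = 3 each), without overlap.

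Itga5, which with beta1 forms the classical fibronectin receptor, measured 74.6, 73.3 and 75.5 TPM in the pLV-Control libraries against 52.6, 55.3 and 52.1 TPM with SEMA6A. The groups did not overlap, and the log2 fold change was −0.47 ± 0.04 (SE, limma adjusted p = 0.000108), just short of the minimum. The order of the 2 leading alpha chains therefore differed between the groups, with Itga5 highest in each pLV-Control library and Itga3 highest in each pLV-SEMA6A library. The ratio of Itga5 to Itga3 was 1.20 ± 0.02 in pLV-Control and 0.661 ± 0.01 in pLV-SEMA6A (SD, n = 3 each). An exact permutation test of this ratio, two-sided, gave p = 0.1, the lower limit for groups of 3 and 3 libraries.

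Itgav, the chain shared by the vitronectin receptors, measured 41.8, 44.0 and 43.2 TPM in the pLV-Control libraries against 40.6, 44.2 and 40.5 TPM with SEMA6A. Its groups overlapped, and the log2 fold change was −0.04 with a 95% interval from −0.16 to 0.07 (limma adjusted p = 0.501).

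Itga10, a collagen-binding partner of beta1 known from cartilage, measured 7.29, 7.50 and 7.02 TPM in the pLV-Control libraries against 4.16, 4.26 and 3.10 TPM with SEMA6A. It fell in every library, with a log2 fold change of −0.78 ± 0.12 (SE, limma adjusted p = 0.00202). Its level is uncertain, since 31.8% of its transcripts, read in 31-base stretches, is shared with other genes, mainly Gm42957, which overlaps it on the same strand. Itga1, another collagen-binding chain, was low, with 2.16, 2.0 and 1.93 TPM in the pLV-Control libraries against 1.66, 1.03 and 1.42 TPM with SEMA6A. It did not pass the threshold, with a log2 fold change of −0.36 (limma adjusted p = 0.0955).

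Within pLV-Control the alpha chains were ordered Itga5, Itga3, Itga7, Itgav, Itga10, Itga6 and Itga1, and within pLV-SEMA6A Itga3, Itga5, Itgav, Itga7, Itga6, Itga10 and Itga1. In neither order did the libraries of neighbouring chains overlap. The 12 alpha chains summed to 247 ± 3.20 TPM without and 226 ± 6.84 TPM with SEMA6A (SD, n = 3 each). Itga3 took 25.1% ± 0.37 of that sum in pLV-Control and 35.7% ± 0.21 in pLV-SEMA6A, and Itga5 took 30.1% ± 0.48 and 23.6% ± 0.26 (SD, n = 3 each). Itga7 went from 21.1% ± 0.77 of the sum to 15.3% ± 0.52 (SD, n = 3 each).

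**Figure D3:**
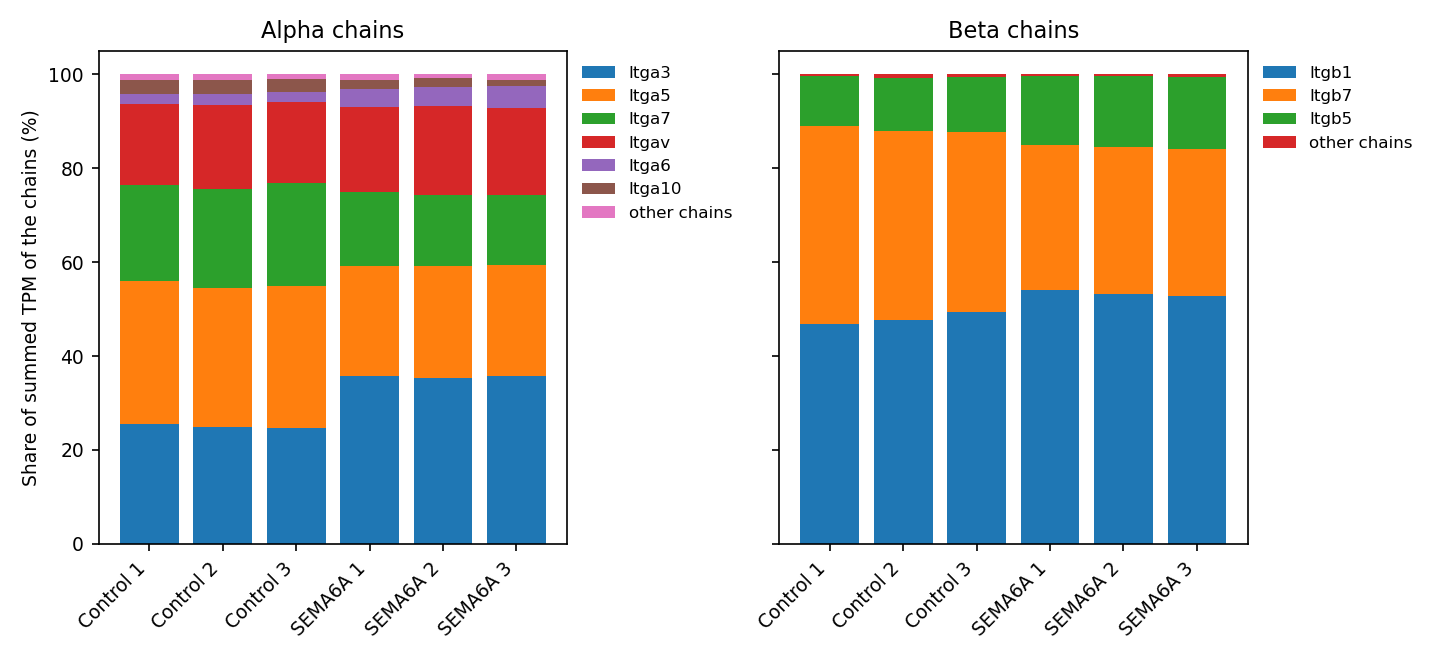
Share of the summed TPM of the 12 integrin alpha chains (left) and 8 beta chains (right) in each of the 6 libraries, as stacked bars. Itga3 and Itgb5 take a larger share, and Itga5, Itga7 and Itgb7 a smaller one, in each pLV-SEMA6A library than in any pLV-Control library.

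Itgb1, the common partner of most alpha chains, was the most abundant beta chain, with 310.5, 315 and 315 TPM in the pLV-Control libraries against 298, 293 and 294 TPM with SEMA6A. The groups did not overlap, but the log2 fold change was −0.09 ± 0.02 (SE, limma adjusted p = 0.0126), and with every library centred on its median it was 0.01 (limma adjusted p = 0.807). Its level therefore exceeded the sum of all alpha chains in each library, by a ratio of 1.26 to 1.27 in pLV-Control and 1.26 to 1.34 in pLV-SEMA6A. Itgb5, which pairs with alphav as a vitronectin receptor, measured 70.2, 75.3 and 74.9 TPM in the pLV-Control libraries against 81.4, 82.9 and 85.5 TPM with SEMA6A. Its groups did not overlap, and the log2 fold change of 0.18 (limma adjusted p = 0.0101) was under the minimum.

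Itgb7, known from lymphocytes, where it pairs with alpha4 or alphaE to direct homing to the gut, measured 280.05, 264 and 244 TPM in the pLV-Control libraries against 171, 174 and 175 TPM with SEMA6A. It fell without overlap of the groups, with a log2 fold change of −0.60 ± 0.05 (SE, limma adjusted p = 0.000177). In both groups it was second to Itgb1 among the beta chains, and it took 40.2% ± 1.94 of their summed TPM in pLV-Control and 31.3% ± 0.33 in pLV-SEMA6A (SD, n = 3 each). Its known partners Itga4 and Itgae summed to between 0.17 and 0.26 TPM in the 6 libraries. Of the 8 leukocyte markers, 3 were listed at 0 in every library, among them Cd3e and Adgre1, and Ptprc reached 0.04 TPM. Cd68 was at 0.68 to 1.97 TPM, S100a8 reached 0.78 TPM and Csf1r 0.64 TPM, and the list summed to 1.42 to 3.31 TPM without and 0.91 to 2.01 TPM with SEMA6A. The part of these cells in the level of Itgb7 was not tested. None of the 31-base stretches of Itgb7 transcripts occurs in another gene, and no other annotated exon overlaps it.

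Other beta chains were scarce. Itgb4, the partner of alpha6 in hemidesmosomes, measured 1.26, 3.13 and 1.14 TPM in the pLV-Control libraries against 0.80, 0.23 and 0.66 TPM with SEMA6A. It did not pass the threshold despite groups that did not overlap (log2 fold change −0.81, standard error 0.31, adjusted p = 0.0712 from limma). Itgb8, which with alphav activates latent TGF-β, was at 1.03 to 1.54 TPM without and 0.76 to 0.98 TPM with SEMA6A and did not pass (limma adjusted p = 0.270). Both chains passed the filter only through pLV-Control. Itgb3 and Itgb6, further partners of alphav, stayed at or below 0.20 TPM, and the leukocyte chain Itgb2 at or below 1.07 TPM. Itga2, Itga4, Itga8 and Itga9 were each below 1 TPM in every library, and Itga11 was listed at 0 in all of them.

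Among laminins the chains of laminin-511 were the most abundant, and none of them was called. Lama5, the only laminin alpha chain above 0.19 TPM, measured 102, 111 and 125 TPM in the pLV-Control libraries against 76.8, 81.7 and 87.0 TPM with SEMA6A. All pLV-SEMA6A libraries were below all pLV-Control libraries, with a log2 fold change of −0.45 ± 0.08 (SE, limma adjusted p = 0.00426). Without pLV-Control replicate 1 the value was −0.52, past the minimum. Lamc1, the gamma chain of most laminins, measured 122, 121 and 124 TPM in the pLV-Control libraries against 105, 104 and 104 TPM with SEMA6A, with groups apart and a log2 fold change of −0.23 ± 0.03 (SE, limma adjusted p = 0.000563). With every library centred on its median, the log2 fold change was −0.36 for Lama5 and −0.14 for Lamc1.

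Lamb1, the beta chain of laminin-511, measured 290.4, 286 and 297 TPM in the pLV-Control libraries against 294, 301 and 286 TPM with SEMA6A. The groups overlapped, and the 95% interval of its log2 fold change of 0.01 ran from −0.05 to 0.08 (limma adjusted p = 0.743). With every library centred on its median it was 0.11 (limma adjusted p = 0.0142). Lamb2, which replaces Lamb1 in laminin-521, measured 30.0, 36.4 and 25.2 TPM in the pLV-Control libraries against 43.0, 41.8 and 37.7 TPM with SEMA6A. Its groups did not overlap, and the log2 fold change of 0.42 ± 0.13 (SE, limma adjusted p = 0.0352) was under the minimum. It was called higher, at 0.51, with every library centred on its median, and at 0.55 without pLV-Control replicate 2. In each library the beta chains together exceeded the alpha chains, with 324 ± 0.73 TPM for beta and 113 ± 11.5 TPM for alpha without SEMA6A, and 335 ± 9.27 and 81.9 ± 5.12 TPM with it (SD, n = 3 each). The ratio of Lama5 to Lamb1 was 0.387 ± 0.03 in pLV-Control and 0.279 ± 0.02 in pLV-SEMA6A (SD, n = 3 each; exact permutation p = 0.1, two-sided).

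Lamb3, the beta chain of laminin-332 in epithelial anchoring, measured 2.95, 2.26 and 1.62 TPM in the pLV-Control libraries against 0.74, 0.38 and 0.93 TPM with SEMA6A. It fell, with a log2 fold change of −0.95 ± 0.22 (SE, limma adjusted p = 0.0126), and passed the filter only through the group in which it was higher. Lama3, the alpha chain of that trimer, was at or below 0.13 TPM in every library. Lama1, Lama2 and Lama4 were at or below 0.19 TPM.

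The nidogens were both lower. Nid2 measured 16.6, 19.3 and 17.3 TPM in the pLV-Control libraries against 11.1, 10.9 and 10.9 TPM with SEMA6A, and fell with a log2 fold change of −0.65 ± 0.07 (SE, limma adjusted p = 0.000419). Other genes hold 7.87% of its 31-base stretches, mainly Rtraf, whose exons overlap it on the opposite strand. Nid1 measured 40.0, 41.2 and 42.1 TPM in the pLV-Control libraries against 33.8, 33.9 and 33.5 TPM with SEMA6A. Its groups did not overlap, and the log2 fold change of −0.28 (limma adjusted p = 0.00111) was under the minimum.

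The thrombospondins, secreted glycoproteins that bind CD47 and CD36 and restrain angiogenesis, fell in every library. Thbs1 measured 33.1, 33.5 and 32.8 TPM in the pLV-Control libraries against 17.4, 18.1 and 17.2 TPM with SEMA6A, which is 0.531 times the pLV-Control mean. Its log2 fold change was −0.88 ± 0.04 (SE, limma adjusted p = 1.9e-05). Thbs2 measured 87.1, 89.4 and 91.9 TPM in the pLV-Control libraries against 56.0, 56.4 and 55.6 TPM with SEMA6A, with a log2 fold change of −0.67 ± 0.03 (SE, limma adjusted p = 2.08e-05). In both genes the groups were far apart compared with the spread of the libraries. In the annotation, exons of Gm29233 overlap Thbs1 on the opposite strand and hold most of the 2.68% of its 31-base stretches found elsewhere.

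Osteopontin and fibronectin were the most abundant of the 39 genes and differed in opposite directions. Spp1, the gene of osteopontin, a secreted RGD glycoprotein, measured 3361, 3409 and 3407 TPM in the pLV-Control libraries against 4464, 4366 and 4392 TPM with SEMA6A. All pLV-SEMA6A libraries were higher, with a log2 fold change of 0.38 ± 0.01 (SE, limma adjusted p = 1e-05), under the minimum. By group mean it ranked 36 among all listed genes in pLV-Control and 17 in pLV-SEMA6A. Other genes hold 14.3% of the 31-base stretches of its transcripts, mainly Gm42793 on the same strand. Fn1, the gene of fibronectin, measured 1609, 1621 and 1675 TPM in the pLV-Control libraries against 1360, 1426 and 1330.02 TPM with SEMA6A. Here all pLV-SEMA6A libraries were lower, with a log2 fold change of −0.25 ± 0.03 (SE, limma adjusted p = 0.000845). The ratio of Spp1 to Fn1 was 2.08 ± 0.04 in pLV-Control and 3.22 ± 0.13 in pLV-SEMA6A (SD, n = 3 each; exact permutation p = 0.1, two-sided).

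Sparc, a collagen-binding matricellular protein, measured 597, 593 and 599 TPM in the pLV-Control libraries against 661, 659 and 648 TPM with SEMA6A. The groups did not overlap, with a log2 fold change of 0.14 ± 0.02 (SE, limma adjusted p = 0.00108). Spp1, Fn1 and Sparc made up 88.3% ± 0.13 of the summed TPM of the 19 ligand genes in pLV-Control and 90.9% ± 0.09 in pLV-SEMA6A (SD, n = 3 each). Tenascin-C (Tnc) stayed at or below 0.94 TPM, vitronectin (Vtn) at or below 0.44 TPM and periostin (Postn) at or below 0.14 TPM.

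Set beside their ligands, the receptor chains gave no common direction. For fibronectin, both the ligand Fn1 and the receptor chain Itga5 were lower, with log2 fold changes of −0.25 and −0.47, while Itgb1 was at −0.09. For laminin-511, the log2 fold changes were −0.45 for Lama5, 0.01 for Lamb1 and −0.23 for Lamc1, and among its receptor chains −0.58 for Itga7, 0.37 for Itga3 and 0.69 for Itga6. For the RGD ligand osteopontin, they were 0.38 for Spp1, −0.04 for Itgav and 0.18 for Itgb5. Since alpha5beta1 and the alphav integrins both recognise RGD, these chains are not confined to the ligand they are set beside. For vitronectin, the receptor chains Itgav and Itgb5 were well expressed and the ligand was nearly absent. These are the fold changes of the single genes, and no test compared receptors with ligands.

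Genes of the same pathway outside the 39 were described from lists of 99 genes, of which 66 were tested, 7 were called higher and 9 lower, where 5.12% of all genes tested were called higher and 10.8% lower. In the list for integrin activation and the adhesion complex, which couples integrins to actin, 27 of 30 genes were tested, 3 were called higher and 1 lower (against the same 5.12% and 10.8%), and the median log2 fold change was 0.11. Nedd9, a docking protein at focal adhesions, rose, with group means of 6.96 ± 0.11 TPM without and 14.3 ± 0.50 TPM with SEMA6A (SD, n = 3 each) and the log2 fold change at 0.94 (limma adjusted p = 4.87e-05). The actin crosslinkers Actn1 and Flna rose with log2 fold changes of 0.70 and 0.60 (adjusted p = 4.97e-05 and 3.39e-05 from limma). The actin- and integrin-binding protein Tns3 fell, with a log2 fold change of −0.56 (limma adjusted p = 0.000133), which went to −0.47 and lost its call with every library centred on its median. Talin and vinculin, which link integrins to actin, were at log2 fold changes of 0.32 (Tln1) and 0.30 (Vcl), under the minimum (limma adjusted p = 0.000802 and 0.000621). Other genes hold 25.3% of the 31-base stretches of Vcl, mainly Ap3m1, whose exons overlap it on the opposite strand. At an adjusted p under 0.05 from limma without a minimum fold, 12 of the 27 genes were higher and 6 lower. By that criterion, 19.5% of all genes tested were higher and 28.2% lower.

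Among other matrix receptors, such as dystroglycan, CD44, syndecans and tetraspanins, 15 of 18 genes were tested and 0 were called. Of all genes tested, 5.12% were called higher and 10.8% lower. The log2 fold changes of these receptors ran from −0.40 to 0.39. At an adjusted p under 0.05 from limma without a minimum fold, 6 of the 15 receptors were higher and 5 lower. By that criterion, 19.5% of all genes tested were higher and 28.2% lower. Of the 6 further integrin chains, the platelet chain Itga2b, named after its values were seen, was the only one tested. It fell, with group means of 2.21 ± 0.55 TPM without and 0.733 ± 0.43 TPM with SEMA6A (SD, n = 3 each), and passed the filter only through the group in which it was higher. It was not called with the replicate block, without pLV-Control replicate 1 or without pLV-Control replicate 3.

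Other matrix glycoproteins moved in both directions, with 22 of 43 tested, 4 called higher and 6 lower, against 5.12% and 10.8% of all genes tested. Agrn, the gene of the basement membrane proteoglycan agrin, measured 124, 116 and 118 TPM in the pLV-Control libraries against 19.1, 19.7 and 15.8 TPM with SEMA6A. Its log2 fold change of −2.66 ± 0.08 (SE, limma adjusted p = 4.02e-06) was the largest of the genes tested in all the lists, members included. Ccn1, a matricellular ligand of alphav and alpha6 integrins, fell, with group means of 739 ± 17.6 TPM without and 314 ± 9.05 TPM with SEMA6A (SD, n = 3 each) and the log2 fold change at −1.23 (limma adjusted p = 1.31e-06). Its relative Ccn2 fell with a log2 fold change of −0.75. Other genes hold 19.7% of the 31-base stretches of Ccn2, mainly Gm15270, whose exons overlap it on the opposite strand. Ltbp4, which holds latent TGF-β in the matrix, fell with a log2 fold change of −0.61, which was −0.48 and not called without pLV-SEMA6A replicate 1. The elastic-fibre glycoprotein Fbln2 rose, with group means of 85.9 ± 0.14 TPM without and 147 ± 4.04 TPM with SEMA6A (SD, n = 3 each) and the log2 fold change at 0.76 (limma adjusted p = 9.06e-06). Fbln5, Ccn3 and Ccn4, named after their values were seen, also rose, with log2 fold changes of 0.54, 0.73 and 0.59. Smoc1 and Thbs3, likewise named after their values were seen, fell, with log2 fold changes of −0.91 and −0.71. Without pLV-SEMA6A replicate 3, Fbln5 was at 0.49 and not called.

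**Figure D4:**
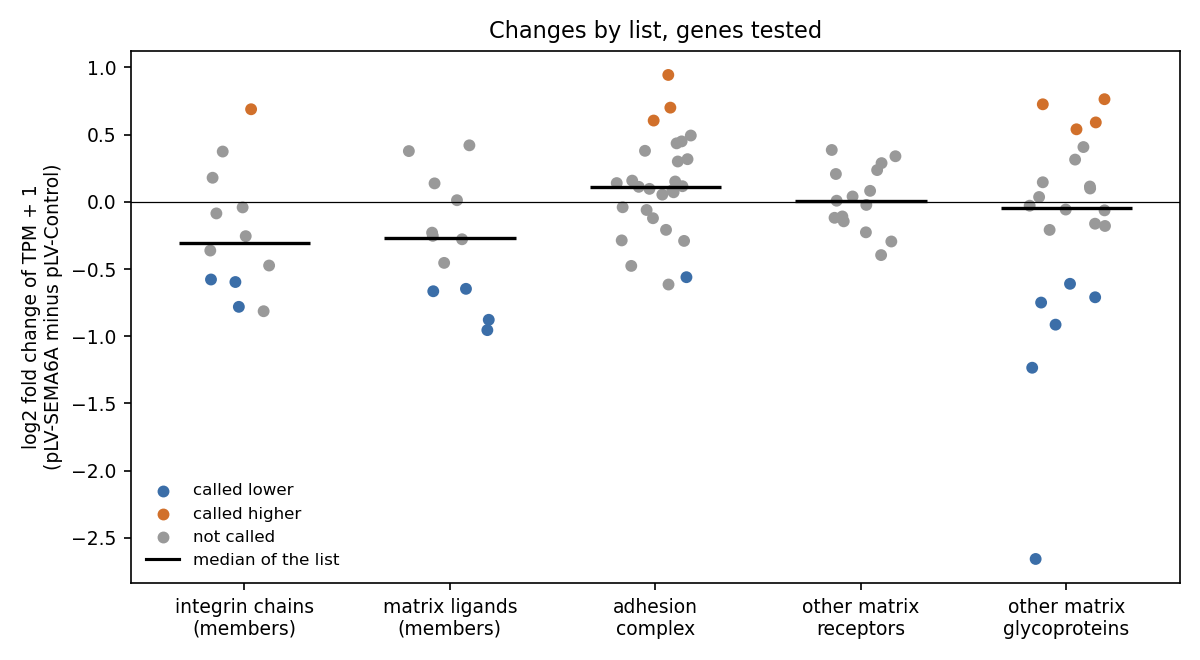
log2 fold change of TPM + 1 (pLV-SEMA6A minus pLV-Control) of each tested gene among the members and in 3 lists of other genes of the pathway, 1 point per gene, with a line at each list's median. Agrn, at −2.66, is the lowest point, in the list of other matrix glycoproteins.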

How the data were processed

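The 6 RNA-seq libraries of SL4 cells formed groups of 3, pLV-Control and pLV-SEMA6A, by their labels. The authors deposited TPM per gene and library with 2 decimals, and a mean per group that was not used here. The table names no unit, and TPM was taken from the values, which sum to nearly the same total in each library, and from the use of RSEM. The submitters' processing notes name HISAT, Bowtie2, RSEM and mm39. Roles, versions and annotation are not given in the sources used here. TPM keeps no read depth, so no counting interval could be derived, and a value of 0 may be a failed estimate.

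Genes whose mean reached 1 TPM (12510) were transformed to log2(TPM + 1) and compared between groups by limma 3.58.1 (R 4.3.3) with its trend option and no covariate. The steps were tested on simulated data. The call criterion (adjusted p under 0.05, log2 fold change beyond 0.5) is that of a limma step in the study's methods for enrichment analysis. For these data the authors used DESeq2, which needs counts and was not run here. Intervals are 95% and SDs are over 3 libraries.

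The members and lists were chosen with earlier results of these data known. All 39 members are named or counted. From the other lists, called genes whose mean reached 10 TPM are named, at most 5 per list, and exceptions are marked. Some genes of these lists are counted but not reported here. Positions and transcripts came from GENCODE M21, which holds 97.0% of the identifiers. The alternatives tried were other pseudocounts, filters, minimum folds and scalings, no trend, a replicate block and leaving out each library. Replicate numbers come from the labels. Deviations of same-numbered libraries correlated at −0.02, −0.08 and −0.07, so the numbers were not taken as pairs.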

Additional observations from a re-analysis of the deposited data

How the results depend on the processing

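The minimum fold change mattered most. Without it, 3 integrin chains were higher and 5 lower, and 3 ligands were higher and 8 lower. In the other pathway lists, 25 genes were higher and 22 lower, where 19.5% of all genes tested were higher and 28.2% lower. With a minimum of 1, 0 integrin chains were called higher and 0 lower, 0 ligands lower, and 0 genes of the other lists higher and 2 lower (Agrn and Ccn1). At that minimum, 81 of the 12510 genes tested were called higher and 304 lower. Centring each library on its median called 1 ligand (Lamb2) and 11 genes of the other lists higher, and Itga7 and, in the other lists, Tns3 lost their calls. Under that scaling, 1002 of all genes tested were called higher and 961 lower, against 640 and 1347 without it. Leaving out each library in turn gave 0 to 1 ligands called higher, the 1 being Lamb2 without pLV-Control replicate 2. Signs turned only where values lay near 0: with centring Itgav went to 0.052 and Itgb1 to 0.0069, and leaving out 1 library put Lamb1 between −0.0049 (without pLV-SEMA6A replicate 2) and 0.030, with −0.00063 without pLV-Control replicate 2. Of the comparisons of a member's value with an alternative, 327 kept both direction and side of the threshold, 14 gained a call, 9 lost one and 4 turned sign. With the replicate block, 1 integrin chain was called higher and 3 lower, and 0 ligands higher and 4 lower, the same genes as without it, while Itga2b of the other lists lost its call, as it did without pLV-Control replicate 1 or 3, and 1924 of all genes tested were called against 1987. A filter at a mean of 5 TPM left Lamb3 and the other low members untested. TPM sets no detection limit, so genes listed near 0 cannot be called absent.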

Other observations

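The neighbourhood of Agrn on chromosome 4 was looked at after its values were seen. Agrn lies from 156165290 to 156197488 on the minus strand of GRCm38 (GENCODE M21), and Isg15, an interferon-induced ubiquitin-like modifier on the same strand, lies 1935 bases beyond its start. Within 100 kb of Agrn, itself the reason for the look, lay 10 other listed genes, of which 6 were tested and 3 were called lower, against 10.8% of all genes tested. Nothing is drawn from this count. By limma, the log2 fold changes were −2.66 for Agrn (adjusted p = 4.02e-06), −1.86 for Isg15 (adjusted p = 9.65e-07), −1.88 for AW011738 (adjusted p = 1.93e-05) and −0.71 for Plekhn1 (adjusted p = 7.02e-05). In TPM, AW011738 went from 15.9 ± 0.73 to 3.61 ± 0.43 and Plekhn1 from 22.9 ± 0.61 to 13.6 ± 0.37 (SD, n = 3 each). Perm1 was at a log2 fold change of −0.50 and 9430015G10Rik at −0.20, neither past the minimum, and Noc2l, 38521 bases from Agrn, was at 0.25. No 31-base stretch of Agrn transcripts occurs in another gene. No cause was tested.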
